A study of Mus musculus with 16 samples.

Results

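The 8 genes described here are the 4 myogenic regulatory factors Myf5, Myod1, Myog and Myf6, the paired-box factors Pax3 and Pax7, the homeobox factor Six4 and its coactivator Eya1. They were taken by name from a deposited table of 35275 genes, and each name matched 1 row. Their RNA was measured in C2C12, a mouse myoblast line, to ask what the miR-206 family contributes to muscle cells. The control arm comprised 2 populations of C2C12, whose genotype is given as wild-type. The knockout arm, called tKO, comprised 2 clones in which miR-1a-1, miR-1a-2 as well as miR-206 were knocked out, so each tKO line stands for 1 clone. All cells, controls included, carried the description PAX7 NEG, a term the labels do not explain. Growth medium (GM) contained 20% fetal bovine serum and cells were taken at about 80% confluence as myoblasts. The differentiated stage (DM3) followed 3 days in 2% horse serum, and its cells are labelled myotubes. Every line was sequenced under the numbers BR1 and BR2 at both stages, which gave 4 groups of 4 libraries, named by genotype and stage (control GM, control DM3, tKO GM, tKO DM3).

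Myogenic regulatory factors are basic helix-loop-helix proteins that pair with E proteins and bind the E-box, a short DNA motif. Myf5 and Myod1 commit cells to the muscle lineage, Myog drives their terminal differentiation, and Myf6 (also called MRF4) acts in determination and in mature fibres. Pax3 and Pax7 mark muscle progenitors and satellite cells, the stem cells of adult muscle, and lie upstream of Myf5 and Myod1. Six4 and its relatives bind the MEF3 motif and use Eya proteins as coactivators, and muscle genes including Myog are among their targets. MicroRNAs of the miR-1 and miR-206 family are made in differentiating muscle, where Myod1 and Myog promote their transcription, and Pax3 and Pax7 messages have been described as their targets.

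Levels are given in FPKM, a unit that divides fragment numbers by gene length and by library size. Libraries held 22642563 to 56585952 fragments, and fewer than 3 fragments in a library was treated as not detected. A gene was tested when its mean over the 16 libraries reached 0.5 FPKM. This kept 11832 genes and 5 of the 8 members, Myf5, Myod1, Myog, Six4 and Eya1, whereas Myf6, Pax3 and Pax7 fell below it. Differences were tested with limma on log2(FPKM + 1) across all tested genes, and a gene was called at an adjusted p under 0.05. Differences on this scale understate the change of low genes. RNA of the deleted microRNA genes was not analysed here, which leaves the knockout labels without a check of their own.

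The label of muscle cells was set against 7 markers, among them the members Myf5, Myod1 and Myog. Desmin (Des), M-cadherin (Cdh15), Ncam1 and Myf5 were detected in every library, but in control GM Myod1 had 0 fragments in every library, and Myog and Ckm were low in GM. The summed FPKM of the 7 was 81.6 to 94.1 in control GM and 371 to 533 in control DM3, then 60.3 to 110 in tKO GM and 189 to 464 in tKO DM3. Des was the largest part in DM3, with means of 339 in controls and 175 in tKO cells. Myf5 was also lower on average in tKO DM3, whereas Cdh15 (44.5 against 28.0), Ncam1, Myod1, Myog and Ckm were higher. Of 8 markers of fibroblasts and mesenchymal progenitors, 6 were detected in every GM library and 7 in every DM3 library. Their sum was 964 to 1460 in control GM and 2670 to 3280 in control DM3, then 543 to 1100 in tKO GM and 1790 to 3350 in tKO DM3, so it was higher in DM3, and its part in the results on stage was not tested. Col1a1 and Col1a2 made up most of it, with means of 511 and 627 in control GM and 1100 and 1630 in control DM3. Among the others, Pdgfra stood at 3.23 and 3.39 in controls, and only Twist2 had a lower mean in control DM3 (0.483 against 1.9). The sum of 5 smooth muscle markers was 1890 to 3180, 783 to 1250, 2090 to 6130 and 952 to 1540 in the same order of groups. Acta2 made up most of it, while the group means of Myh11 were 0.0197 to 0.0959 FPKM. In these bulk samples, fewer cells of a type and less RNA per cell cannot be told apart.

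In growth medium Myf5 was nearly the whole of the myogenic regulatory factor message, and by DM3 Myod1 and Myog had joined it in both genotypes. Myf5 (ENSMUSG00000000435, chromosome 10, 107482908 to 107486134) stood at 20.6 and 13.2 FPKM in BR1 and BR2 of control population 1 in GM, and at 16.4 and 17.9 in population 2. In tKO GM it was at 11.5 and 12.2 in clone 1 and at 13.9 and 12.4 in clone 2. The GM groups overlapped only through the lowest control library. In control DM3 the values were 20.3, 13.2, 15.5 and 26.4 in the same order of lines and numbers. In tKO DM3 they were 10, 27.2, 8.94 and 22.0, with both BR1 libraries low and both BR2 libraries high.

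Group means of Myf5 were 17.0 ± 3.07 FPKM (control GM), 18.9 ± 5.82 (control DM3), 12.5 ± 1.01 (tKO GM) and 17.0 ± 8.99 (tKO DM3) (SD, n = 4). The order from high to low was control DM3, control GM with tKO DM3, then tKO GM, and no neighbours in it passed the test against each other within a stage or a genotype. Myf5 did not pass in either stage comparison, with a limma log2 difference of 0.11 (SE 0.28, adjusted p = 0.755) in controls and 0.28 (SE 0.28, adjusted p = 0.419) in tKO cells. The 95% intervals, -0.49 to 0.71 and -0.32 to 0.87, hold changes in either direction.

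Myod1 (ENSMUSG00000009471, chromosome 7, 46376474 to 46379092), the founding member of the family, had 0 fragments in all 4 control GM libraries. In tKO GM, clone 1 gave 3 fragments in BR1 and 1 in BR2, and clone 2 gave 0 in both. In control DM3 Myod1 stood at 1.40 and 2.75 FPKM in population 1 and at 0.746 and 2.72 in population 2. In tKO DM3 it stood at 3.41 and 2.72 in clone 1 and at 1.63 and 1.61 in clone 2. Every DM3 library was above every GM library of its genotype.

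Summed over libraries, 602 fragments of Myod1 in control DM3 stood against 0 in control GM. Its mean of 1.9 FPKM in control DM3 was at least 36.4-fold above control GM, where the limit of 3 fragments per library averaged 0.0523 FPKM. In tKO cells 525 fragments stood against 4, a ratio per fragment sequenced of 125 with a 95% counting interval of 48.7 to 462. The rise passed in controls (limma log2 difference 1.47, SE 0.22, adjusted p = 2.32e-05) and in tKO cells (1.68, SE 0.22, adjusted p = 5.83e-06).

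Myog (ENSMUSG00000026459, chromosome 1, 134289989 to 134292548), which encodes myogenin, gave 1 fragment in all control GM libraries together and 8 in tKO GM, of which 7 came from clone 1. In control DM3 it stood at 4.19 and 8.65 FPKM in population 1 and at 2.35 and 8.65 in population 2. In tKO DM3 it stood at 20.4 and 19.3 in clone 1 and at 8.23 and 3.89 in clone 2. Clone 1 lay above all 4 control libraries, and clone 2 lay within their range.

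In DM3 Myog averaged 5.96 ± 3.19 FPKM in controls and 13 ± 8.18 in tKO cells (SD, n = 4). Per fragment sequenced, DM3 exceeded GM 1190 times in controls (1521 fragments against 1, which is below the limit of detection, counting interval 214 to 47200) and 279 times in tKO cells (2333 against 8, interval 141 to 647). Both rises passed, at 2.66 (SE 0.39, adjusted p = 2.4e-05) and 3.5 (SE 0.39, adjusted p = 1.4e-06) on the limma log2 scale.

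Myf6 (ENSMUSG00000035923, chromosome 10, 107492860 to 107494729), the neighbour of Myf5 on the same strand, stayed at 0 to 10 fragments per library. Control GM held 1, 0, 2 and 5 fragments and control DM3 6, 10, 0 and 7, while tKO GM held 2, 3, 2 and 6 and tKO DM3 2, 7, 0 and 3. No comparison of its 4 groups passed a two-sided exact permutation test of 4 against 4 libraries, whose lowest p was 0.257, where 0.0286 is the smallest this design can give.

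**Figure D1:**
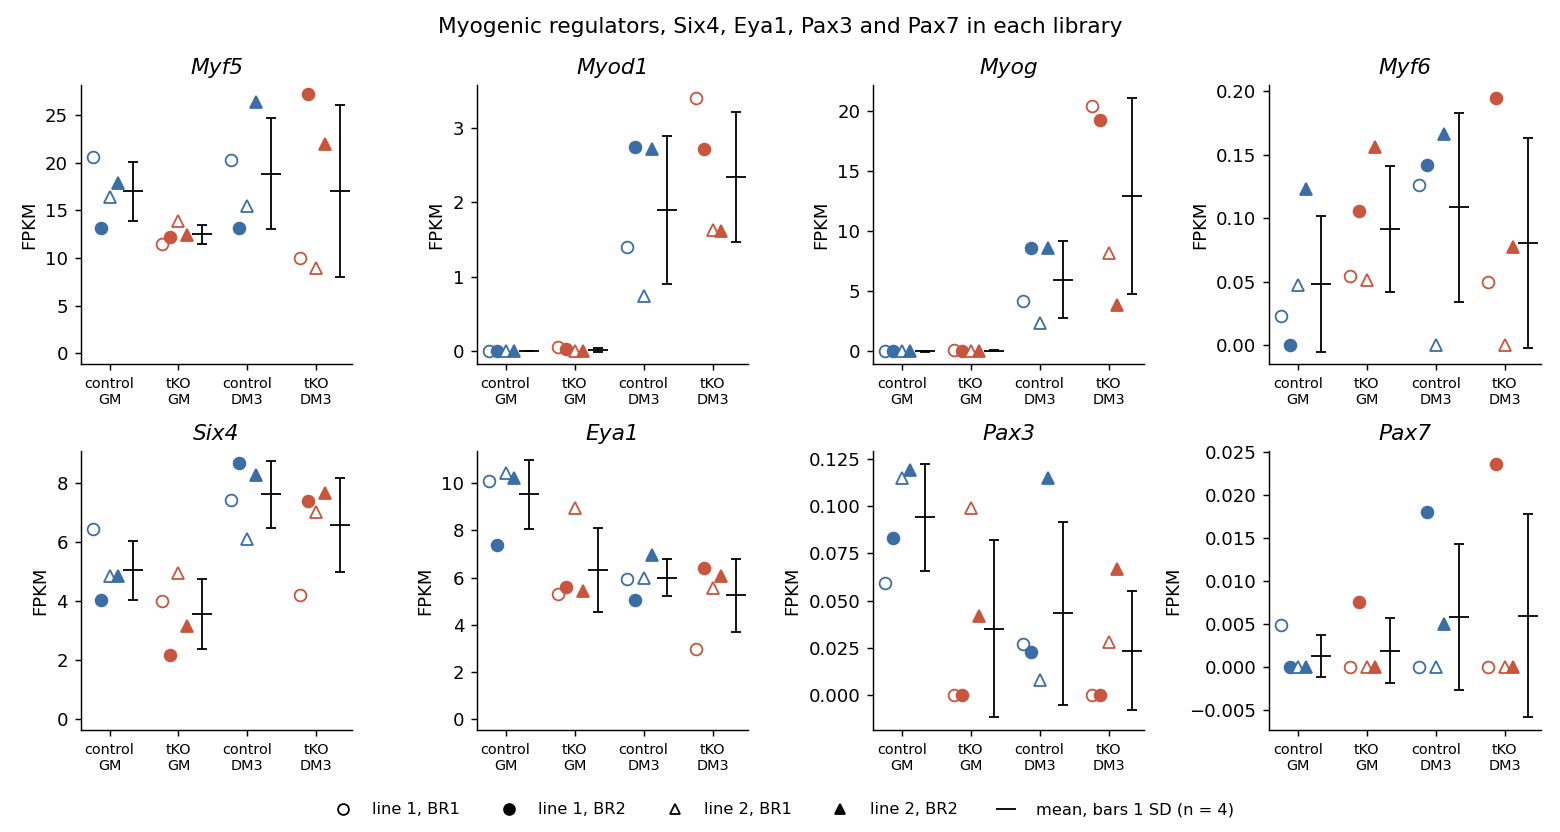
FPKM of each member (vertical axis, a separate linear scale for each gene) in the 4 groups; circles are control population 1 or tKO clone 1, triangles are population 2 or clone 2, open symbols BR1, filled symbols BR2, and bars show the mean and 1 SD of 4 libraries. Myod1 and Myog are near 0 in every GM library and above it in every DM3 library, and Pax3 is at 0 in all 4 libraries of tKO clone 1.

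As a share of the summed FPKM of the 4 myogenic regulatory factors, Myf5 took 99.3 to 100% in control GM and 98.1 to 99.5% in tKO GM. In DM3 the Myf5 share was 53.4 to 83.4% in controls and 29.5 to 79.8% in tKO cells, that of Myog 12.6 to 34.9% and 14.1 to 60.3%, and that of Myod1 4.0 to 11.1% and 5.5 to 10.1%. The share of Myog was largest in clone 1 BR1, at 60.3%, where Myf5 was at 29.5%. In the BR2 library of clone 2, Myog was at 14.1% and Myf5 at 79.8%, close to control population 1 BR1 (16.1% and 78.0%). Myf6 took at most 0.572% in DM3. The sum itself ran from 13.2 to 20.6 FPKM in control GM and from 18.6 to 37.9 in control DM3, then from 11.7 to 14 in tKO GM and from 18.8 to 49.4 in tKO DM3.

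**Figure D2:**
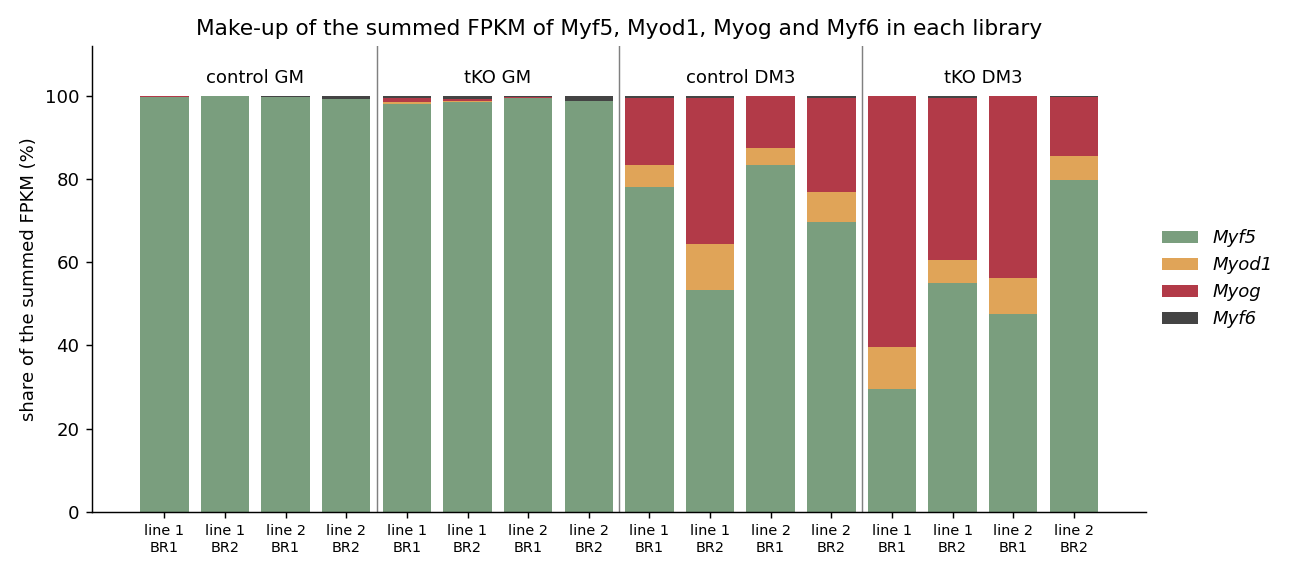
Share of the summed FPKM of Myf5, Myod1, Myog and Myf6 (vertical axis, %) taken by each gene in each of the 16 libraries, ordered by group, line and replicate number. Myf5 fills at least 98.1% of every GM bar, while in DM3 it ranges from 29.5 to 83.4% and Myog takes most of the rest.

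RefSeq promoter windows on GRCm38.p6 matched Myf5, Myog, Pax7 and Six4, 4 of the 8 members, and those of Myog and Six4, which rose, and of Myf5, which did not pass, are printed so that their motifs can be compared. Each window runs from 250 bases before to 50 bases after the transcription start. Both strands were searched for the E-box CANNTG, for the MEF3 motif TCAGGTT, and for a MEF2 motif, CTANNNNTA with A or T at each N. The E-box occurs in 72.3%, MEF3 in 4.07%, MEF2 in 3.6% and all of them together in 0.107% of 32851 RefSeq promoter windows of the same length. The sequences run 5′ to 3′ on the gene's strand, with motif matches in capitals.
Myog, chr1:134289754-134290053, plus strand: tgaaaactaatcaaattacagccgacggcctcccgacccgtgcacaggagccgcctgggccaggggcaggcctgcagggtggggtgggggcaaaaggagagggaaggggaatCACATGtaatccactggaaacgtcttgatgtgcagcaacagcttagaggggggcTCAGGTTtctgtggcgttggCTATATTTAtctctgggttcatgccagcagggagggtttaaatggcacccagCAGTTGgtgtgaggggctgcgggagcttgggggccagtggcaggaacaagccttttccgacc
Six4, chr12:73113196-73113495, minus strand: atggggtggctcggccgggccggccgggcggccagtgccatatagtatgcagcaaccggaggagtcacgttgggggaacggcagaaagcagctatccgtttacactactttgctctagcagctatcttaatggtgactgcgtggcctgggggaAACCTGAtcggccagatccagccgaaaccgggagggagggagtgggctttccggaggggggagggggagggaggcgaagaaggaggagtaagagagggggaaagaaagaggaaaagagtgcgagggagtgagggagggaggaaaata
Myf5, chr10:107486085-107486384, minus strand: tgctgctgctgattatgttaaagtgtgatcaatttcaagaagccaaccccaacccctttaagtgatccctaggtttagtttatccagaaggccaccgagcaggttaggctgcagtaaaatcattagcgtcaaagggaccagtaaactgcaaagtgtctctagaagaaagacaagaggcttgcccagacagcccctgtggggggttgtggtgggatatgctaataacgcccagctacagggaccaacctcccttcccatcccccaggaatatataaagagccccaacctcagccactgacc

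The Myog window held all 3 motifs, with E-boxes starting at -138 (CACATG) and -12 (CAGTTG) from the start site, MEF3 at -84 (TCAGGTT) and MEF2 at -64 (CTATATTTA), and no match overlapped another. Six4 held 1 MEF3 match, on the opposite strand at -97 (AACCTGA). Its other RefSeq start, and the windows of Myf5 and Pax7, held none of these letters. A match describes the sequence and is not a measured binding site.

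**Figure D3:**
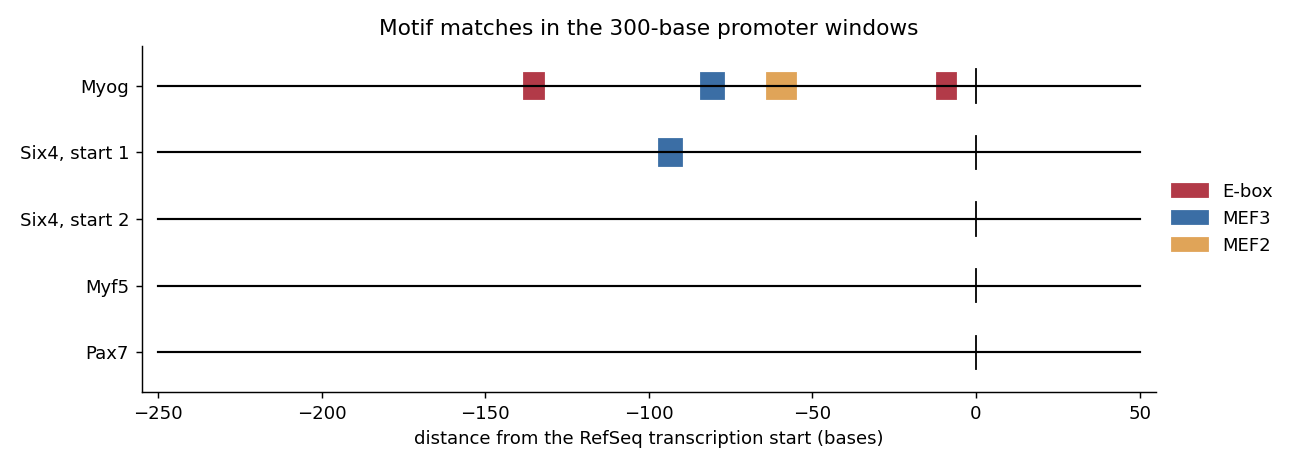
Positions of E-box, MEF3 and MEF2 matches (coloured boxes) along the 300-base RefSeq promoter windows of Myog, Six4 (2 start sites), Myf5 and Pax7; the horizontal axis is the distance from the transcription start in bases and the upright tick marks the start. Myog holds 2 E-boxes with MEF3 and MEF2 matches between them, Six4 holds 1 MEF3 match at its first start, and the other windows hold none.

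Six4 rose between GM and DM3 by 1.51-fold in controls and 1.84-fold in tKO cells, while its coactivator Eya1 fell in controls to 63.0% of the GM mean. Six4 (ENSMUSG00000034460, chromosome 12, 73099609 to 73113456) stood at 6.45, 4.06, 4.85 and 4.84 FPKM in control GM, in the order of lines and numbers used above, and at 4.0, 2.18, 4.97 and 3.16 in tKO GM. In DM3 the values were 7.43, 8.68, 6.12 and 8.29 in controls and 4.22, 7.38, 7.03 and 7.68 in tKO cells. The stages overlapped in each genotype through 1 low DM3 library, population 2 BR1 in controls and clone 1 BR1 in tKO cells.

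The means of Six4 were 5.05 ± 1.01 FPKM (control GM), 7.63 ± 1.13 (control DM3), 3.58 ± 1.19 (tKO GM) and 6.58 ± 1.59 (tKO DM3) (SD, n = 4). The limma difference between stages was 0.52 (SE 0.20, adjusted p = 0.0329) in controls and 0.74 (SE 0.20, adjusted p = 0.0042) in tKO cells. The control call was lost in 6 of 16 fits that each left out 1 library (adjusted p 0.0543 to 0.0956). It was also lost with TPM (0.51, adjusted p = 0.079), without a filter (0.52, adjusted p = 0.0685) and without population 1 (adjusted p = 0.242) or population 2 (0.181). The 6 libraries were population 1 BR2 and both libraries of population 2 in GM, and both libraries of population 1 and population 2 BR2 in DM3. With BR1 libraries alone neither genotype passed (0.23, adjusted p = 0.466, and 0.24, adjusted p = 0.43), and with BR2 libraries alone both did (0.80, adjusted p = 0.00389, and 1.23, adjusted p = 0.00043).

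Eya1 (ENSMUSG00000025932, chromosome 1, 14168954 to 14310235), a phosphatase that enters the nucleus with its homeobox partners, went the opposite way from Six4. In control GM it stood at 10.1, 7.36, 10.4 and 10.2 FPKM, and in control DM3 at 5.92, 5.06, 5.99 and 6.97, so the control stages did not overlap. In tKO GM it stood at 5.30, 5.6, 8.95 and 5.41, and in tKO DM3 at 2.99, 6.39, 5.55 and 6.08, so the tKO stages did overlap.

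Means of Eya1 were 9.51 ± 1.43 FPKM (control GM), 5.99 ± 0.779 (control DM3), 6.32 ± 1.76 (tKO GM) and 5.26 ± 1.55 (tKO DM3) (SD, n = 4). Control GM was the highest, and the other 3 groups lay within each other's spread. Eya1 fell by 0.58 on the log2 scale between stages in controls (SE 0.19, adjusted p = 0.0151), and in tKO cells the difference was -0.24 (SE 0.19, adjusted p = 0.30). The control fall did not pass without population 1 (adjusted p = 0.133), without population 2 (0.158), or within BR1 (0.0796) or BR2 (0.0595) alone.

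Between stages, 4 of the 5 tested members passed in controls, Myod1, Myog and Six4 upward and Eya1 downward, and 3 passed in tKO cells, all upward. Myod1 and Myog passed the filter only through their DM3 libraries, so they could not have been called lower in DM3. Passing was common in these contrasts, at 61.5% of all tested genes in controls and 60.9% in tKO cells. Groups did not overlap for 3 of the 5 members in controls, against 64.4% of all tested genes, and for 2 of the 5 in tKO cells, against 49.1%. The median difference over all genes was -0.15 in controls and -0.12 in tKO cells. Median-of-ratios scaling moved it to 0.01 and 0.006 without turning the stage difference of any tested member. The same scaling moved the split of all calls from 2743 higher and 4529 lower to 3611 and 3631 in controls, and from 2951 and 4257 to 3571 and 3587 in tKO cells.

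No tested member passed between tKO and control cells at either stage. In GM the limma differences were -0.54 for Eya1 (SE 0.19, 95% interval -0.95 to -0.13, adjusted p = 0.155), -0.43 for Six4 (interval -0.85 to -0.01, adjusted p = 0.275) and -0.40 for Myf5 (interval -1.0 to 0.20, adjusted p = 0.498). Those 3 genes were lower on average in tKO cells. For Eya1, 3 tKO libraries (5.30 to 5.6 FPKM) lay below every control library (7.36 to 10.4), and clone 2 BR1 at 8.95 FPKM lay among the controls. Without that library Eya1 passed (-0.70, adjusted p = 0.0385), and the calls among all tested genes rose from 244 to 749. With all libraries, limma and voom called 0 of the 5 members, and limma called 2.06% of all tested genes. An unadjusted p under 0.05 was found for 2 (Eya1 and Six4), beside 17.5% of all tested genes. Every member's groups overlapped, against 14% of all genes whose groups did not.

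In DM3, Myog showed the widest genotype difference of the 5, with a tKO mean 2.18 times the control mean and a limma difference of 0.90 (SE 0.39, 95% interval 0.07 to 1.73, adjusted p = 0.253). It passed without clone 2 (1.72, adjusted p = 0.00723) and without the BR2 library of clone 2 (1.33, adjusted p = 0.0409). Those fits called 1136 and 339 of all tested genes, beside 400 with all libraries. Within BR1 the difference was 1.75 (adjusted p = 0.178) and within BR2 it was 0.05 (adjusted p = 0.967). The other members differed by -0.24 (Myf5, interval -0.84 to 0.36), 0.24 (Myod1, interval -0.22 to 0.70), -0.21 (Six4, interval -0.63 to 0.21) and -0.19 (Eya1, interval -0.60 to 0.22), with adjusted p from 0.629 to 0.726. Again 0 of the 5 were called by limma and 0 by voom, beside 3.38% of all tested genes called and 8.52% whose groups did not overlap. Myog alone had an unadjusted p under 0.05, beside 16.8% of all tested genes.

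The clones of the tKO arm were compared after their Myog values had been seen. Myog was 1.63 higher in clone 1 than in clone 2 in DM3 on the limma log2 scale (SE 0.43, 95% interval 0.71 to 2.56, adjusted p = 0.0781), which did not pass, beside 2.03% of all tested genes called in that contrast. Over the alternatives its adjusted p ran from 0.0218 to 0.343, and it passed without population 2 BR1 (0.0218) or population 2 BR2 (0.0219) of control DM3. Myod1 differed in the same direction by 0.63 (adjusted p = 0.32).

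Whether the change between stages itself differed by genotype was tested as an interaction. None of the 5 members passed in limma or voom, and 0.254% of all tested genes were called. None had an unadjusted p under 0.05, beside 10.8% of all tested genes. The interaction was 0.84 for Myog (95% interval -0.34 to 2.02, adjusted p = 0.60) and 0.35 for Eya1 (interval -0.23 to 0.92, adjusted p = 0.674). The fall of Eya1 in controls alone is therefore not shown to differ from the tKO value.

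**Figure D4:**
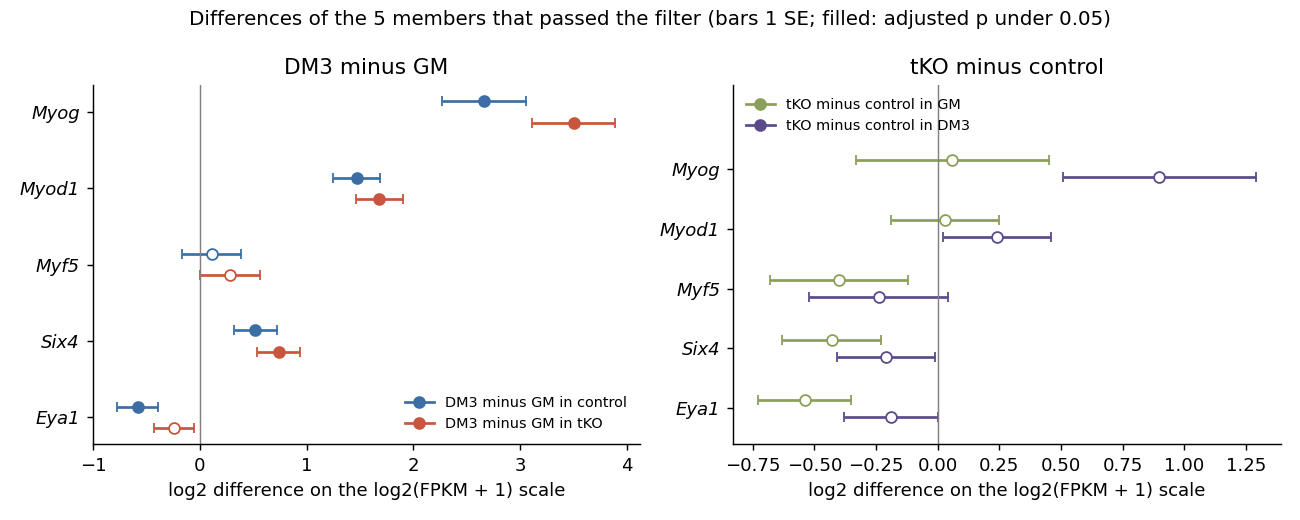
limma differences of the 5 tested members on the log2(FPKM + 1) scale (horizontal axis) with bars of 1 SE, between stages (left) and between genotypes (right); filled points have an adjusted p under 0.05. Myog, Myod1 and Six4 are filled to the right of 0 in both genotypes, Eya1 is filled at -0.58 in controls, and no genotype difference is filled.

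The DM3 libraries were also compared by replicate number. The labels do not say what BR1 and BR2 stand for. Averaged over the genotypes, Myf5 was 0.68 higher in BR2 than in BR1 (SE 0.19, limma adjusted p = 0.038), and it was the only member called, beside 12% of all tested genes. In 3 of the 4 lines Myf5 was higher in BR2, by 26.4 against 15.5 FPKM in population 2, 27.2 against 10 in clone 1 and 22.0 against 8.94 in clone 2, whereas population 1 gave 13.2 against 20.3. The call was lost under median-of-ratios scaling (0.55, adjusted p = 0.0614), without a filter (adjusted p = 0.0773), when only DM3 libraries were fitted (0.118) and in 9 of 16 fits without 1 library (up to 0.141). These were the 4 tKO DM3 libraries, both of population 2 and BR1 of population 1 in control DM3, and the BR1 libraries of both populations in control GM. Under that scaling the split of all calls turned from 1072 higher and 350 lower to 626 and 944.

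Myod1, Six4, Eya1 and Myog differed by 0.37, 0.34, 0.25 and 0.36 between the numbers and did not pass (adjusted p 0.153 to 0.549). Leaving out 1 tKO DM3 library left 1 library in a mean of group and number. Without clone 1 BR1 the differences were 0.56 for Myod1 and 0.72 for Myf5. Without clone 2 BR1 they were 0.50 for Six4 and 0.64 for Myf5. The genotype difference was also set against the number. Its change from BR1 to BR2 was 1.21 for Myf5 (95% interval 0.39 to 2.03, adjusted p = 0.365), -1.0 for Myod1 (interval -1.73 to -0.26, adjusted p = 0.372) and -1.71 for Myog (interval -3.32 to -0.09, adjusted p = 0.401). limma called 0 of the 5 members and voom 0, and 0.00845% of all tested genes were called. These 3 had an unadjusted p under 0.05, beside 12.1% of all tested genes. Without clone 2 BR1 in DM3, which left 1 BR1 library of tKO DM3, the value for Myod1 was -1.37.

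Pax3 and Pax7 were close to absent. Pax3 (ENSMUSG00000004872, chromosome 1, 78101267 to 78197134) gave 8, 8, 15 and 15 fragments in control GM and 4, 5, 1 and 15 in control DM3. In tKO cells it gave 0, 0, 12 and 5 in GM and 0, 0, 3 and 8 in DM3. Clone 1 had 0 fragments in all 4 of its libraries, of 113154601 sequenced, which allows up to 0.00686 FPKM. Clone 2 had 28 fragments, control population 1 had 25 and population 2 had 46. The genotype difference in GM and the stage difference in controls each had a two-sided exact permutation p of 0.0857 for 4 against 4 libraries (0.471 after adjustment over 11 tests of the low members), and neither passed.

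Pax7 (ENSMUSG00000028736, chromosome 4, 139737062 to 139833528) gave 1, 0, 0 and 0 fragments in control GM and 0, 6, 0 and 1 in control DM3. In tKO cells it gave 0, 1, 0 and 0 in GM and 0, 4, 0 and 0 in DM3. Only population 1 BR2 and clone 1 BR2 in DM3 exceeded 3 fragments. None of its 3 exact permutation tests passed (p from 0.429 to 1.00), and in GM both genotypes were under the limit and no test was made.

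The low messages of Pax3 and Pax7 carry sites through which the deleted microRNAs could pair, as does that of Six4, which was not low. Sites from each are printed for that reason. The mature miR-206 on GRCm38.p6 (RefSeq, chromosome 1, 20679055 to 20679076) is shown with its seed, bases 2 to 8, in capitals. Below it stand matches to the seed in the longest annotated 3′ untranslated regions of GENCODE release M21 (GRCm38), with the pairing bases in capitals, 5′ to 3′ on the gene's strand.
mmu-miR-206-3p: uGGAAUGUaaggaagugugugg
Pax7, chr4:139738666-139738673, minus strand: cagccaagggagcaACATTCCAacgcttg
Pax3, chr1:78102473-78102479, minus strand: tcaaagaagctaaaACATTCCgtgtgtgt
Pax3, chr1:78101481-78101487, minus strand: aggtaggcacaaatACATTCCctttagat
Six4, chr12:73105683-73105689, minus strand: tttctcatagaaagACATTCCtttgctta

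Pax7 held 5 sites of 7 or 8 bases in 3725 bases, of which the one shown is the full 8-base match ACATTCCA. Pax3 held 2 in 2038 bases and Six4 held 1 in 5170 bases, while Myf5, Myod1, Myog, Myf6 and Eya1 held 0. Among 10806 tested genes with an annotated 3′ untranslated region, 19% held at least 1 such site and 4.46% an 8-base one. Their regions had a median of 1191.5 bases, shorter than those of Pax7, Pax3 and Six4. Of the 3 members with sites only Six4 was tested, and its tKO minus control difference was -0.43 in GM and -0.21 in DM3.

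Other relatives and partners of Six4 and Eya1 were described by a list of 10, of which 4 passed the filter. In controls 1 rose and 1 fell between stages, and in tKO cells 2 rose and 1 fell, beside 61.5% and 60.9% of all tested genes called. The median difference was 0.35 and 0.40 against -0.15 and -0.12 over all genes. Sobp, which encodes a cofactor of the family, rose from 3.11 ± 1.21 to 6.01 ± 1.22 FPKM in controls (0.80, adjusted p = 0.00306) and from 1.73 ± 0.628 to 4.44 ± 0.891 in tKO cells (1.01, adjusted p = 4.83e-04; SD, n = 4). Eya3 fell like Eya1 in controls, from 11.4 ± 0.264 to 6.72 ± 0.298 FPKM (-0.69, adjusted p = 3.76e-04), and also in tKO cells (-0.69, adjusted p = 3.46e-04). Six5, the other gene that rose in tKO cells (0.36, adjusted p = 0.0429), differed by 0.27 in controls (adjusted p = 0.123). Six2 had a mean of 0 in every group. Between genotypes limma and voom called 0 of the 4 at either stage. An unadjusted p under 0.05 was found for 1 in GM (Sobp) and 0 in DM3, beside 17.5% and 16.8% of all tested genes.

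Among 7 partner genes, E proteins and Mef2 factors, 5 were tested. In controls 3 rose and 1 fell, and in tKO cells 4 rose and 0 fell, beside 61.5% and 60.9% of all tested genes called. The Mef2 factors cooperate with the myogenic regulators on muscle promoters. Mef2d rose from 21.0 ± 0.581 to 44.6 ± 7.88 FPKM in controls (1.04, adjusted p = 2.71e-05) and by 0.54 in tKO cells (adjusted p = 0.00645), and Mef2a rose by 1.00 (adjusted p = 0.00184) and 0.89 (adjusted p = 0.00442). The E protein gene Tcf12 rose by 0.78 (adjusted p = 0.00286) and 0.49 (adjusted p = 0.0434). Tcf3, which encodes E12 and E47, fell in controls from 68.0 ± 3.27 to 52.3 ± 4.8 FPKM (-0.38, adjusted p = 0.0066), and its tKO difference of -0.22 did not pass (adjusted p = 0.0866).

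Of 12 genes that act before or beside the myogenic regulators in development, 4 passed the filter. In controls 1 rose and 1 fell, and in tKO cells 0 rose and 2 fell, beside 61.5% and 60.9% of all tested genes called. The T-box factor gene Tbx1 rose by 0.88 in controls (adjusted p = 0.0249), where its tKO difference was 0.36 (adjusted p = 0.354). Met, the receptor that migrating muscle precursors use, fell from 15 ± 1.35 to 7.82 ± 1.2 FPKM in controls (-0.87, adjusted p = 0.00163) and by 0.59 in tKO cells (adjusted p = 0.0205).

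The list of textbook targets of the myogenic regulators, contractile, receptor and fusion genes, rose with Myod1 and Myog. Of 18 genes 17 were tested, 15 rose in controls and 16 in tKO cells, and none fell, with medians of 3.33 and 2.95. Among all 11832 tested genes 2743 rose in controls and 2951 in tKO cells. Some targets, such as Gm7325, Myh3, Tmem8c and Chrng (control GM means of 0 to 0.0426 FPKM), passed the filter only through DM3 libraries. Such genes could not have fallen, so the counts are no test of the list. Myl1, a fast light chain of myosin, rose from 0.348 ± 0.512 to 256 ± 66.7 FPKM in controls and from 0.0606 ± 0.0433 to 165 ± 74.7 in tKO cells (7.60, adjusted p = 1.14e-11, and 7.18, adjusted p = 2.37e-11). Chrng, the fetal gamma subunit of the acetylcholine receptor, rose by 5.36 and 5.47, and Tmem8c, which encodes the fusion protein myomaker, by 4.57 and 4.54. Skeletal actin Acta1 rose by 5.54 and 3.61. Between genotypes limma and voom called 0 of the 17 at either stage or in the interaction. An unadjusted p under 0.05 was found for 4 in GM, 5 in DM3 and 4 in the interaction. Among all tested genes these shares were 17.5%, 16.8% and 10.8%.

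Between replicate numbers in DM3, 5 of the 17 targets were lower in BR2 and 0 were higher, beside 12% of all tested genes called. The median over the 17 was -0.65 against 0.09 over all genes. The 5 were Tmem8c, Myh3, Ckm, Actc1 and Tnnc1, with differences of -0.89, -0.85, -1.0, -1.39 and -0.95. These values average the genotypes. In tKO cells all 17 targets had the lower mean in BR2, by a median of -1.23, whereas in controls 9 of 17 did and the median was -0.04. Myh3, for example, differed by -2.02 in tKO cells and 0.31 in controls, and Tnnc1 by -2.32 and 0.42. As a test of that contrast between genotypes, limma and voom called 0 of the 17, with a median of -1.68 against 0.11 over all genes. An unadjusted p under 0.05 was found for 10 of the 17, beside 12.1% of all tested genes. Averaged over the genotypes, the 5 tested members had differences from 0.25 to 0.68. In tKO DM3, Myog was lower in BR2 in clone 1 (19.3 against 20.4 FPKM) and clone 2 (3.89 against 8.23). Myod1 was also lower there (2.72 against 3.41, and 1.61 against 1.63). Myf5, Six4 and Eya1 were higher in BR2 in both clones. Myog and Myod1 were higher in BR2 in both control populations.

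Satellite cell genes, the company of Pax7 in resting muscle stem cells, were listed as 12, and 9 were tested. In controls 5 rose and 3 fell between stages, and in tKO cells 6 rose and 2 fell, beside 61.5% and 60.9% of all tested genes called. Itga7, an integrin chain that binds laminin, rose from 40.9 ± 4.16 to 369 ± 66.1 FPKM in controls (3.13, adjusted p = 3.73e-09) and by 2.91 in tKO cells (adjusted p = 6.68e-09). Megf10, a receptor of satellite cells, fell by 1.49 (adjusted p = 1.04e-04) and 1.17 (adjusted p = 9.03e-04). Calcr was at 0 in every group.

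This list, unlike the members, held genes called between genotypes. Of its 9 tested genes limma called 1 higher and 2 lower in GM, and 1 higher and 3 lower in DM3. The shares of all tested genes called were 2.06% and 3.38%. Spry1, an inhibitor of receptor tyrosine kinase signalling, averaged 0.261 ± 0.0484 FPKM in control GM and 2.60 ± 0.421 in control DM3, and 0.00591 ± 0.00684 in tKO GM and 0.242 ± 0.127 in tKO DM3 (SD, n = 4). It was lower in tKO DM3 (-1.54, adjusted p = 2.33e-07). Spry1 passed the filter only through control DM3, so it could hardly have been called higher in tKO DM3. Its interaction rests on the same group. The interaction was -1.21 on the log2(FPKM + 1) scale (adjusted p = 0.00343) but 1.01, opposite in sign and not called, with voom (adjusted p = 0.679). In GM voom also called Spry1 lower (-4.60, adjusted p = 0.00136), while limma on log2(FPKM + 1) did not (-0.33, adjusted p = 0.139). Cxcr4, a chemokine receptor, was lower in tKO cells in GM (-1.04, adjusted p = 0.0208) and in DM3 (-1.15, adjusted p = 0.00669), as was the Notch effector Hey1 (-0.87, adjusted p = 0.00598, and -0.66, adjusted p = 0.0232). Cdh15 was higher in tKO GM, at 29.7 ± 8.8 against 9.79 ± 1.44 FPKM (1.47, adjusted p = 5.89e-04), and the proteoglycan gene Sdc3 was higher in tKO DM3, at 11.6 ± 3.36 against 5.17 ± 1.3 (1.02, adjusted p = 0.0128).

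**Figure D5:**
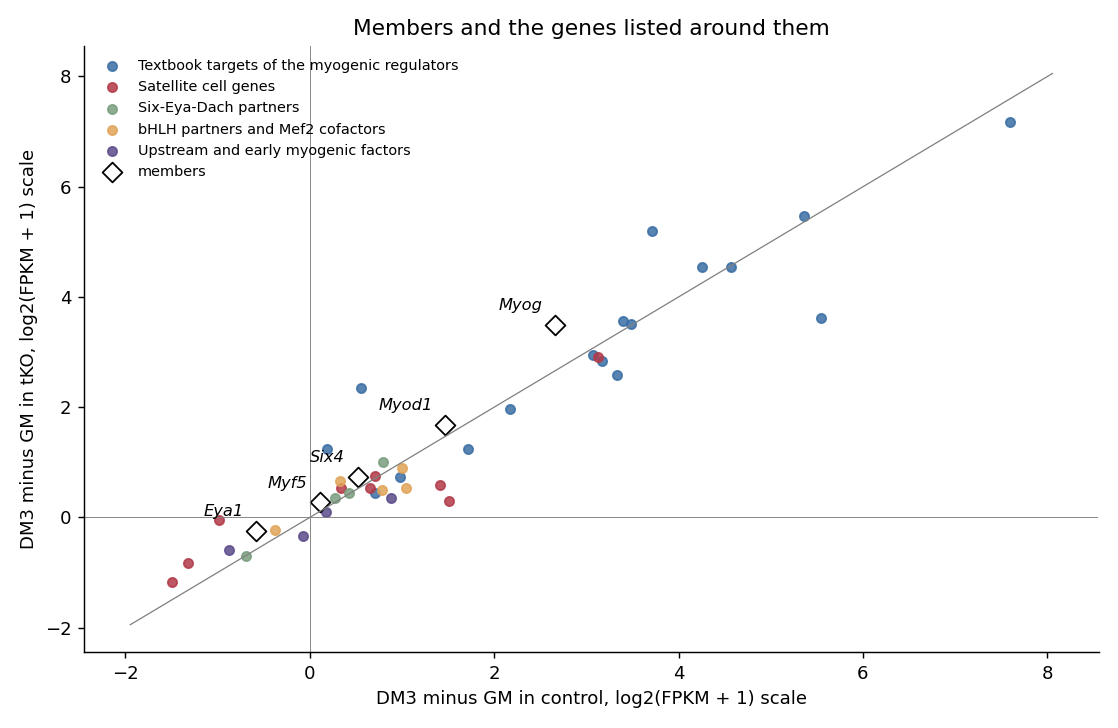
DM3 minus GM on the log2(FPKM + 1) scale in controls (horizontal axis) and in tKO cells (vertical axis) for the tested genes of the 5 lists (coloured points) and the 5 tested members (open diamonds); the diagonal marks equal differences. Textbook targets reach 7.60 in controls, Myog and Myod1 stand to the right of 0, and Eya1 stands below 0 in both genotypes.

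The tested genes whose log2(FPKM + 1) followed each member most closely were ranked by Pearson's r, as a description of libraries that share stage, line and depth. Over the 16 libraries, Myod1 and Myog followed each other (r = 0.985). Ddc, which encodes an enzyme of dopamine and serotonin synthesis, came next for both (0.981 with Myod1 and 0.977 with Myog), then Hspb7 for Myod1 (0.981) and Smyd1 for Myog (0.976). Six4 was closest to Tbl1xr1 (0.967), Eya1 to Cc2d2a (0.938), and Myf5 to Glb1l (0.864). Over the 8 DM3 libraries alone, Myod1 and Myog were not among each other's 3 closest genes. Myod1 was then closest to Ddc (0.919), Myog to Gt(ROSA)26Sor (0.951), Myf5 to Plec (0.991), Six4 to Lims1 (0.984) and Eya1 to Ino80 (0.984).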

How the data were processed

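Poly(A) RNA of 16 libraries was analysed. The authors deposited 1 table of FPKM values, with 1 column per library and the gene length used, and replicates were not pooled. STAR, DESeq and mm10 are named in the submitters' processing notes, while their roles and versions, the counting program and the annotation are not given in the sources used here. No source says if reads were counted by strand, which makes overlapping and antisense genes uncertain. The product of FPKM and gene length gave whole fragment numbers for 100% of values (tolerance 0.01 fragments), and depth is the sum of these. Limits of 3 fragments and 95% counting intervals (exact binomial) cover counting error only, since fragments are not independent molecules.

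Groups and replicate numbers were read from the titles, and 0 sample columns were left unmapped. Genes with a mean of at least 0.5 FPKM over all libraries were fitted with limma 3.58.1 (R 4.3.3) on log2(FPKM + 1), as means of the 4 groups with trend and robust moderation and Benjamini-Hochberg adjustment over 11832 genes. Intervals of differences are 95% intervals from the moderated fit. Contrasts of the replicate number used means of group and number, and the clone contrast used means of group and line. Members below the filter were compared by exact permutation over 70 arrangements. The fit was tested on simulated data. Alternatives were a pseudocount of 0.1, no filter or 5 FPKM, TPM and median-of-ratios scaling, voom on the recovered fragments, fewer libraries, a replicate block, line as a random effect or unit, and leaving out libraries or lines. Fits within 1 replicate number and the clone contrast were chosen after seeing the data.

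Members and lists were chosen with earlier results of these data known. From each list the text names up to 4 genes called in control cells between stages with the largest differences, and every gene called between genotypes or in the interaction; Six2, Six5, Calcr and the 5 targets lower in BR2 were named after their values were seen, and 1 listed gene is not reported here. The nearest 3 genes by Pearson's r over all and over DM3 libraries were ranked for each tested member, and the first are named. The labels do not say whether BR1 and BR2 were separate cultures and each tKO line is 1 clone, so p-values measure only the spread between these libraries. Other steps ran in Python 3.11.15 (pandas 2.3.3, scipy 1.17.1, numpy 2.4.6).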

Additional observations from a re-analysis of the deposited data

Results flagged for a closer look

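In 3 of 28 groups of 4 libraries, 1 library stood far from the other 3, where chance gives about 1 in 20 groups. Eya1 in control GM was 7.36 FPKM in population 1 BR2, with the others at 10.1 to 10.4. Eya1 in tKO GM was 8.95 FPKM in clone 2 BR1, with the others at 5.3 to 5.6. Pax7 in tKO DM3 was 0.0237 FPKM, 4 fragments, in clone 1 BR2, with 0 in the others. That rate is for continuous values and does not hold for Pax7, whose other libraries were all at 0.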

How the results depend on the processing

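The rises of Myod1 and Myog between stages passed in both genotypes under each of their 31 alternatives. With a filter of 5 FPKM both genes left the fit, so 2 members were called between stages in controls and 1 in tKO cells. In controls, 2 were called without population 1, without population 2 and within BR1. Leaving out 1 library gave 0 to 1 called members between genotypes in GM and in DM3, and 3 to 4 between stages in controls. Without clone 2, 1 was called between genotypes in DM3. For the contrasts of the replicate number, leaving out a DM3 library left 1 library in a mean of group and number. Between replicate numbers 0 were called without a filter, with median-of-ratios scaling and with only the compared libraries.

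Among the members, the directions that turned were of differences that had not passed, whereas the called interaction of Spry1 turned with voom (1.01). Within BR2 the DM3 genotype difference was 0.37 for Myf5, -0.26 for Myod1 and 0.058 for Eya1, and it was -0.0754 for Myod1 without clone 1. Leaving out 1 library took it from -0.50 to 0.000179 for Myf5 and from -0.29 to 0.0099 for Eya1. The stage difference of Myf5 in controls was -0.010 without population 2, -0.046 within BR1 and -0.059 to 0.26 without 1 library, and in tKO cells it was -0.38 within BR1, against 0.94 within BR2 (adjusted p = 0.0284), while that of Eya1 in tKO cells was 0.15 within BR2. The interaction was -0.013 for Myf5 and -0.0754 for Myod1 without clone 1, -0.34 for Myf5 within BR1 and -0.28 for Myod1 within BR2. With voom it was -0.89 for Myod1 and -0.59 for Myog, and without 1 library it ran from -0.10 to 0.40 for Myf5 and from -0.011 to 0.36 for Myod1. Between replicate numbers Myog ran from -0.16 to 0.87 without 1 library. The change of the genotype difference with the number was -0.017 for Six4 under median-of-ratios scaling and -0.20 to 0.42 without 1 library. The cause was not tested.

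Same-numbered libraries deviated together on average, with a mean r across genes of 0.25 in GM and 0.187 in DM3 between genotypes. Between stages the pairs shared the line as well as the number, and the mean r was 0.202 in controls and 0.198 in tKO cells. The lowest pair was -0.224, between genotypes in DM3, and in the other contrasts every pair was positive (lowest 0.0771). The labels state no pairing, so the replicate block was kept as an alternative. With the replicate block the counts of called members were 0 between genotypes in GM and in DM3, 4 and 3 between stages and 0 in the interaction, as without it. Over all tested genes the block raised the calls between genotypes from 244 to 336 in GM and from 400 to 523 in DM3. Line averages as units lowered these calls to 97 in GM and 131 in DM3, and those of the interaction from 30 to 1. Fits of only the compared libraries gave 201 calls in GM and 113 in DM3. Depth limits Myf6, Pax3 and Pax7, which stayed at 15 fragments or fewer per library.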
